A study of Homo sapiens with 12 samples.

Results

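The transcripts of 9 genes that the tumour suppressor p53 is known to switch on were followed in HCT116, a human cell line established from a colorectal carcinoma, exposed to dolastatin 15. They were chosen by symbol: CDKN1A, MDM2, GDF15, FAS, SESN1, ZMAT3, BTG2, TP53I3 and PPM1D, 9 of the 58174 genes in the deposited table, and all 9 were among the 13458 genes that reached at least 1 FPKM (fragments per kilobase of transcript, scaled to the sequencing depth) in at least 2 libraries and were tested. Dolastatin 15 is a peptide of marine origin that binds tubulin and blocks microtubule assembly. The 12 libraries fall into 6 groups of 2: dolastatin 15 at 20 nM for 16 h, at 100 nM for 16 h, at 20 nM for 24 h and at 100 nM for 24 h, and cells given only the solvent, DMSO, for 16 h and for 24 h. All groups, the solvent controls included, were in medium with 5% serum and 0.25% DMSO. The design asks how the transcripts of drug-treated cells differ from those of solvent-treated cells at each dose and time. The labels give no genotype of the line. Treatments were made in duplicate wells or cultures that the labels do not describe further, so p-values measure how far these libraries scatter, and that scatter may be technical.

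p53 is a transcription factor that the ubiquitin ligase MDM2 holds at a low level in unstressed cells. When DNA damage, or a mitosis that lasts too long, releases p53 from MDM2, it binds paired half-sites in DNA and raises genes that halt the cell cycle, repair damage or start cell death. Several of these targets, MDM2 and the phosphatase PPM1D among them, act back on p53 to end the response. Drugs that block microtubules hold cells in mitosis, and in cultured cells a slip out of that arrest is known to be followed by p53 activity and p21.

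The 9 genes were chosen by symbol and not by sequence, and the p53 sites found next to their start sites are shown first. RefSeq promoter windows (GRCh38.p14, 250 bases before to 50 after each annotated start) existed for all 9 genes, 17 windows in all. They were searched for a p53 full site, meaning 2 adjoining half-sites of 10 bases with no spacer, the core letters CNNG kept in each of them and at most 3 mismatches over the 20 bases; the site is its own reverse complement, so a search of 1 strand covers both. Of the 17 windows 5, from 4 genes, held one, and 1.12% of all 35114 windows did. In the lines below the 20 bases of the site are in capitals and the flanking bases in lower case, 5′ to 3′ on the gene's strand.
MDM2, chr12:68808918-68808947, plus strand, 2 mismatches: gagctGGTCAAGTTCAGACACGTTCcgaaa
FAS, chr10:88991304-88991333, plus strand, 2 mismatches: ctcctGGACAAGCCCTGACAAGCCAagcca
SESN1, chr6:109009013-109009042, minus strand, 3 mismatches: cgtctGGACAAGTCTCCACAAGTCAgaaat
GDF15, chr19:18386181-18386207, plus strand, 3 mismatches: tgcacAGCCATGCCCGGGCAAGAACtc
In the GENCODE 29 annotation the MDM2 and SESN1 sites lie inside the gene and in no exon, upstream of an internal start site, while the FAS and GDF15 sites lie in an exon of at least 1 transcript. The best stretch in the CDKN1A window had 5 mismatches, that of ZMAT3 4, and the windows of BTG2, TP53I3 and PPM1D had none with fewer than 7. That says only that such letters are not in these 300 bases.

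The upstream sequences of BTG2 and PPM1D are shown because these 2 genes changed in the most comparisons below. Each stretch runs from 250 bases before the RefSeq start to the first annotated exon on the gene's strand (222 bases for BTG2, 240 for PPM1D). Capitals mark exact matches, on either strand, to the GC box GGGCGG, the CCAAT box CCAAT and the cyclic AMP response element TGACGTCA; the TATA box TATAAA and the E2F site TTTCGCGC were searched too and are in neither stretch.
BTG2, chr1:203305269-203305490, plus strand: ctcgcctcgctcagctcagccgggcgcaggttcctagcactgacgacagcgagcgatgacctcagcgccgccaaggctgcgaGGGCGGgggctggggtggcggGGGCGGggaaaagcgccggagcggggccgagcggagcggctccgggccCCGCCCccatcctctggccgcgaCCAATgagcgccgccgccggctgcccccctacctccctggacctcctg
PPM1D, chr17:60599943-60600182, plus strand: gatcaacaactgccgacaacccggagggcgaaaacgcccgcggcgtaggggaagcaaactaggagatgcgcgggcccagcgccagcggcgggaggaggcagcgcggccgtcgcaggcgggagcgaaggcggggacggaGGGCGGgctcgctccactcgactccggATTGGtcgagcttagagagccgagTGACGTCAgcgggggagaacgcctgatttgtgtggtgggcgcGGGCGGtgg
BTG2 has 3 GC boxes and a CCAAT box, and PPM1D has 2 GC boxes, a CCAAT box and the cyclic AMP response element. Of all promoter windows, 45.0% hold a GC box, 34.6% a CCAAT box, 11.5% a TATA box, 1.85% the cyclic AMP response element and 0.515% the E2F site. A match is a description of the letters and not evidence of binding.

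Depth was estimated from the steps of the lowest values at 27800000 to 39700000 fragments per library, so that 1 FPKM of a 2000-base transcript stands for an estimated 46.7 to 67.3 fragments. FPKM summed to 911720 to 1049886 over all genes, highest in the 20 nM 24 h libraries, and mitochondrial genes held 17.9% to 25.8% of the sum. The epithelial markers EPCAM, KRT8, KRT18 and KRT19 stood between 204.02 and 485.83 FPKM, CLDN4 between 16.86 and 35.75 and CDH1 between 2.91 and 3.92. CDX1 and VIL1, markers of differentiated intestinal epithelium, did not pass 0.22. CLDN4 and KRT18 were lower in all 4 drug comparisons, KRT19 was higher in 3 and EPCAM higher in 2. KRT8 and CDH1 were called in none. Of 12 markers of leukocytes, fibroblasts and endothelium, COL1A1 (1.44 to 4.34 FPKM) was tested and the others stayed under 1 FPKM in every library.

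Most of the 9 genes were transcribed at a low level. FPKM is a value per transcript length, so the genes can be set side by side: MDM2 stood highest at a mean of 42.9 FPKM over the 12 libraries, the 77.7th percentile of the tested genes, followed by PPM1D at 18.9 (59.9th percentile). TP53I3 averaged 8.08, CDKN1A 6.70 and GDF15 4.35 FPKM. FAS (2.54), BTG2 (2.52), ZMAT3 (2.43) and SESN1 (2.19) lay between the 16.8th and the 19.0th percentile, with overlapping ranges, so their order is not resolved. The median tested gene averaged 12.8 FPKM. MDM2 varied least over the 12 libraries, with a coefficient of variation of 4.92%, and BTG2 most, with 27.9%, followed by ZMAT3 with 27.8% and GDF15 with 26.9%.

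**Figure D1:**
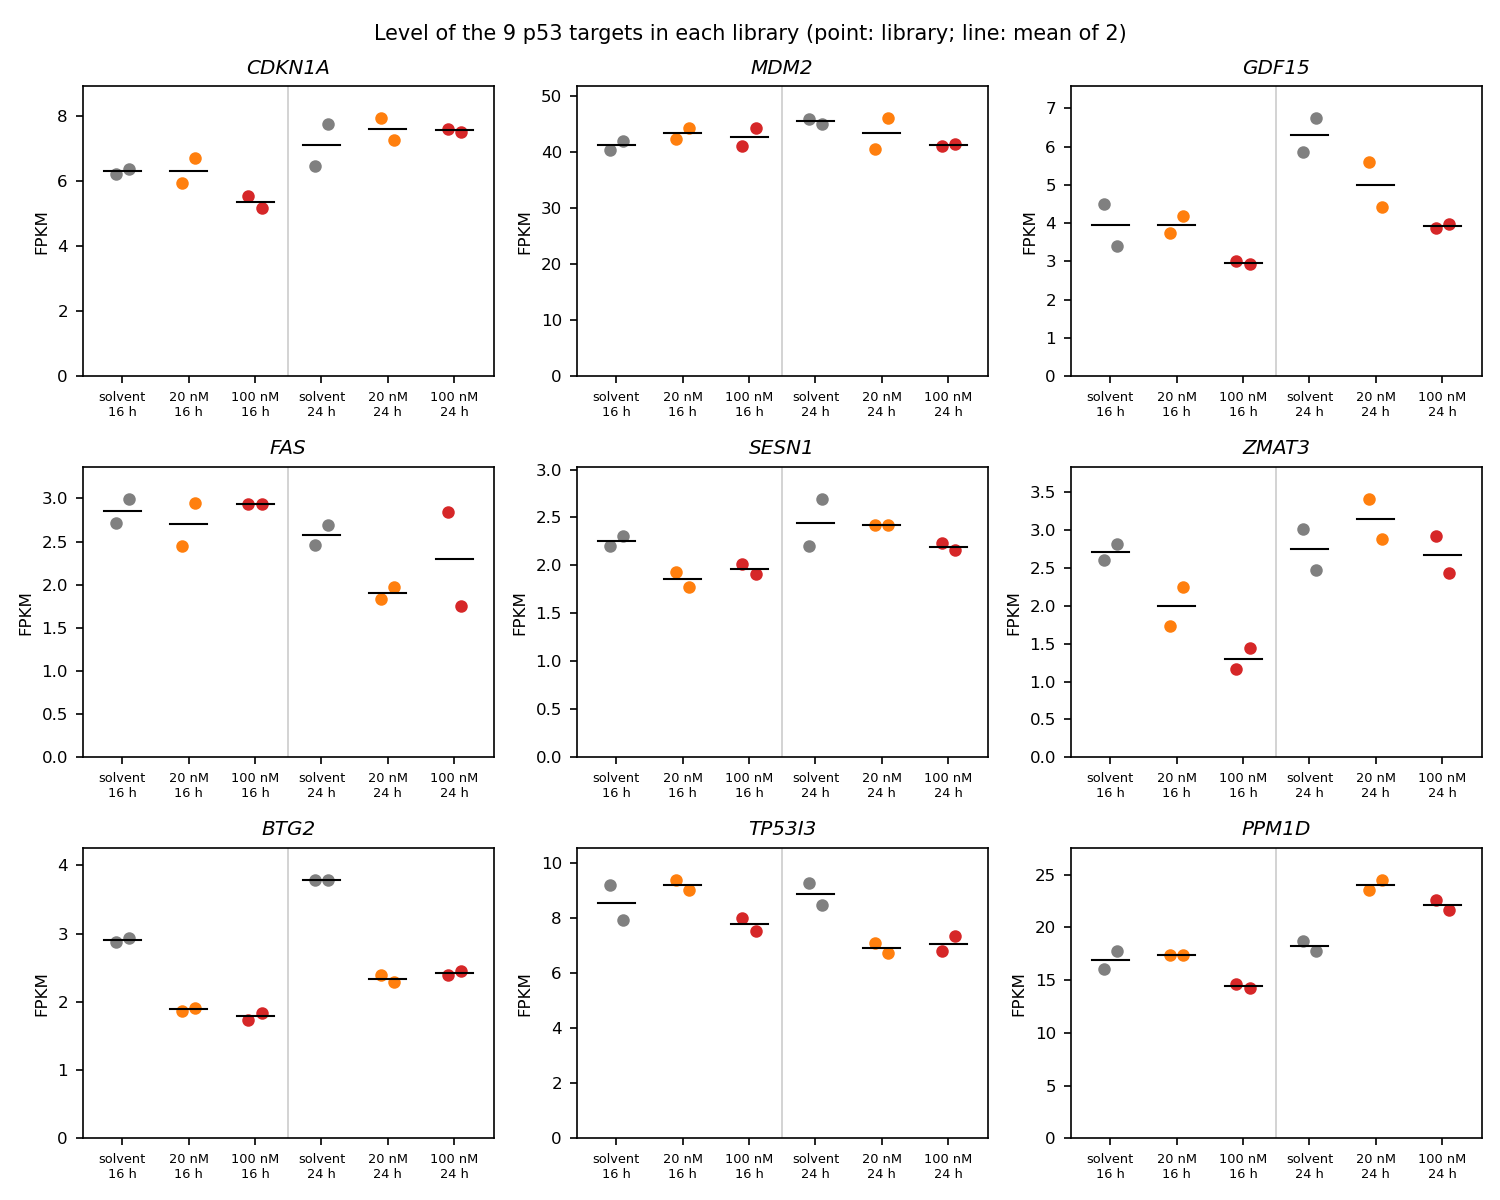
Level in FPKM (y axes, each from 0) of the 9 p53 targets in the 6 groups (x axes: solvent in grey, 20 nM in orange and 100 nM dolastatin 15 in red, at 16 h left and 24 h right of the grey line); each point is a library and each black line the mean of 2. BTG2 lies below its solvent libraries in all 4 drug groups, PPM1D stands highest in the 24 h drug groups (21.64 to 24.48 FPKM), and CDKN1A and MDM2 stay between 5.16 and 7.92 and between 40.4 and 46.06 FPKM.

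Of the 2 genes that stop the cell cycle, BTG2 fell with drug and CDKN1A passed no test. CDKN1A (ENSG00000124762, GRCh38 chromosome 6, 36676460 to 36687339, plus strand) encodes p21, the inhibitor of cyclin-dependent kinases through which p53 halts the cycle, and is the target most often used to read p53 activity. Its level was 6.21 and 6.37 FPKM in solvent at 16 h, 5.93 and 6.70 at 20 nM, then 5.54 and 5.16 at 100 nM. At 24 h it was 6.44 and 7.74 FPKM in solvent, 7.92 and 7.24 at 20 nM, then 7.6 and 7.5 at 100 nM. Only at 100 nM after 16 h did both drug libraries lie on one side of both solvent libraries, below them. CDKN1A did not pass the test in any comparison: the log2 changes of FPKM + 1 against solvent were 0.0030 at 20 nM and -0.20 at 100 nM after 16 h (adjusted p = 0.989 and 0.146), and 0.088 and 0.084 after 24 h (adjusted p = 0.501 and 0.506). The upper ends of the 95% intervals were 0.21, 0.0049, 0.29 and 0.29.

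BTG2 (ENSG00000159388, chromosome 1, 203305491 to 203309602, plus strand), an antiproliferative factor that recruits the machinery removing poly(A) tails from messenger RNA, fell in every drug group. It stood at 2.87 and 2.93 FPKM in solvent at 16 h, against 1.87 and 1.91 at 20 nM, then 1.73 and 1.84 at 100 nM. At 24 h both solvent libraries were at 3.78 FPKM, against 2.39 and 2.29 at 20 nM, then 2.39 and 2.45 at 100 nM. No drug library reached a solvent library of its own time. The log2 changes were -0.43, -0.49, -0.52 and -0.48 for 20 nM and 100 nM at 16 h and then at 24 h, each with a standard error of 0.0759, and the adjusted p-values 0.00574, 0.00225, 0.00160 and 0.00169 (limma, two-sided, Benjamini-Hochberg over all tested genes). On the FPKM scale the drug groups had 0.652, 0.616, 0.619 and 0.640 of the solvent mean. Of all tested genes, 3.67% were lower in all 4 drug comparisons, which share solvent libraries by time point. The 100 nM libraries differed from the 20 nM ones by -0.054 (95% interval -0.23 to 0.12) at 16 h and 0.034 (-0.14 to 0.21) at 24 h. The 24 h effect minus the 16 h effect was -0.085 (-0.33 to 0.16) at 20 nM and 0.0030 (-0.24 to 0.25) at 100 nM, and none of these 4 passed the test. In bulk RNA, fewer cells that express a gene and less of its RNA per cell cannot be told apart. COL1A1, the 1 testable marker of another cell type, fell at 100 nM too (-0.66 at 16 h and -0.50 at 24 h); the 12 markers summed to 4.63 to 6.03 FPKM in solvent and 2.79 to 4.72 in drug libraries, with PTPRC, CD3E, COL1A2, COL3A1 and CDH5 at or below 0.06 in all, and their part in the result was not tested.

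The genes that feed back on p53 were the most abundant of the 9. MDM2 (ENSG00000135679, chromosome 12, 68808176 to 68850686, plus strand), the ligase that marks p53 for degradation, was at 40.4 and 42.04 FPKM in solvent at 16 h, 42.4 and 44.39 at 20 nM, then 41.12 and 44.26 at 100 nM. At 24 h the values were 45.9 and 45.1 FPKM in solvent, 40.65 and 46.06 at 20 nM, then 41.03 and 41.44 at 100 nM. The 100 nM libraries at 24 h lay below both solvent libraries, and the 6 group means differed by less than the 2 libraries at 20 nM and 24 h did. MDM2 passed no test, with log2 changes of 0.072, 0.049, -0.071 and -0.14 in the order used above and adjusted p-values of 0.464, 0.619, 0.431 and 0.118. The largest rise inside any of the 4 intervals was 0.21. A processed pseudogene, AC025423.2 (chromosome 12, 68841946 to 68842384), lies on the same strand with all of its 439 bases in MDM2 exons and is listed at 33.65 to 51.73 FPKM, so the split of fragments between the 2 is uncertain. When every library was rescaled to the same FPKM sum, which moved the median of all tested genes by -0.16 at 20 nM and 24 h, MDM2 was lower at 24 h at both doses (-0.25 and -0.23, adjusted p = 0.0106 and 0.0168).

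PPM1D (ENSG00000170836, chromosome 17, 60600183 to 60666280, plus strand) encodes WIP1, a phosphatase that removes activating phosphates from p53 and from the kinases that signal to it. The solvent libraries of 16 h held 16.06 and 17.74 FPKM, both 20 nM libraries 17.42 and the 100 nM libraries 14.61 and 14.24. At 24 h PPM1D stood at 18.68 and 17.77 FPKM in solvent, 23.56 and 24.48 at 20 nM, then 22.59 and 21.64 at 100 nM. The 100 nM libraries were thus the lowest of all at 16 h, and at 24 h all 4 drug libraries lay above both solvent libraries. PPM1D rose at 24 h, by 0.38 at 20 nM (standard error 0.0569, adjusted p = 0.00175) and by 0.27 at 100 nM (adjusted p = 0.00720), and fell by 0.21 at 100 nM after 16 h (adjusted p = 0.0262), while the change at 20 nM after 16 h was 0.043 (adjusted p = 0.650). The difference between the 24 h and the 16 h effect passed its own test at both doses, at 0.34 for 20 nM (adjusted p = 0.0296) and 0.48 for 100 nM (adjusted p = 0.00863). That at 20 nM missed the threshold with no filter on low values (adjusted p = 0.0517) and with median-of-ratios scaling (0.0509). The fall at 16 h no longer passed without either 100 nM library or without the solvent library at 17.74 FPKM (adjusted p = 0.0715, 0.113 and 0.156), with median-of-ratios scaling (0.0599) or with the 16 h libraries fitted alone (0.0592). The rise at 100 nM no longer passed without the 100 nM library at 22.59 or the solvent library at 17.77 FPKM (adjusted p = 0.0541 and 0.0527), and under rescaling to a common sum it was 0.17 (adjusted p = 0.0612) and the difference between times at 20 nM 0.16 (adjusted p = 0.268).

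Of the genes followed here for the stress arm, GDF15 passed in 1 drug comparison and TP53I3 in 2, each time lower, and SESN1 passed in none. Other p53 targets linked to stress went the other way. SESN2, the relative of SESN1, GADD45A and TIGAR were each called higher in 2 drug comparisons and PLK2 in 3, and none of them was called lower. Further targets that fell are named with the other p53 targets below. GDF15 (ENSG00000130513, chromosome 19, 18374731 to 18389176, plus strand) is a secreted stress cytokine of the TGF-beta family. At 16 h its level was 4.5 and 3.41 FPKM in solvent, 3.74 and 4.18 at 20 nM, then 3.0 and 2.93 at 100 nM. At 24 h its level was 5.86 and 6.74 FPKM in solvent, 5.6 and 4.41 at 20 nM, then 3.88 and 3.98 at 100 nM. All 100 nM libraries lay below their solvent libraries. GDF15 fell by 0.56 at 100 nM after 24 h (standard error 0.129, adjusted p = 0.00965), to 0.624 of the solvent mean. It did not pass at 100 nM after 16 h (-0.31, adjusted p = 0.113), at 20 nM after 24 h (-0.29, adjusted p = 0.129) or at 20 nM after 16 h (0.0088, adjusted p = 0.975). Rescaled to a common sum, GDF15 passed at 20 nM after 24 h (-0.44, limma, adjusted p = 0.0212). In solvent alone it was 0.57 higher at 24 h than at 16 h (adjusted p = 0.0403), a call lost when any 1 of 10 of the 12 libraries was left out. The fall at 100 nM after 24 h missed the threshold without the 100 nM library at 3.88 or the solvent library at 6.74 FPKM (adjusted p = 0.0530 and 0.0689).

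TP53I3 (ENSG00000115129, chromosome 2, 24077433 to 24085861, minus strand), also known as PIG3, is a quinone oxidoreductase linked to reactive oxygen in p53-driven cell death. It was at 9.21 and 7.93 FPKM in solvent at 16 h, 9.39 and 9.02 at 20 nM, then 8.03 and 7.54 at 100 nM. At 24 h the values were 9.30 and 8.50 FPKM in solvent, 7.12 and 6.74 at 20 nM, then 6.82 and 7.35 at 100 nM. The 4 drug libraries at 24 h were the lowest of the 12. TP53I3 fell at 24 h by 0.32 at 20 nM (standard error 0.0806, adjusted p = 0.0175) and by 0.29 at 100 nM (adjusted p = 0.0223). At 16 h the changes were 0.096 and -0.12 (adjusted p = 0.452 and 0.320). The 20 nM effect differed between times by -0.42 (adjusted p = 0.0482). This difference missed the threshold with no filter on low values (adjusted p = 0.102) and with a constant prior (0.0521). Without the solvent library at 9.30 FPKM neither 24 h change passed (adjusted p = 0.112 and 0.129), nor did that at 20 nM without the library at 6.74 (0.0738) or that at 100 nM without the library at 6.82 (0.125); with no filter on low values the latter missed the threshold as well. FAM228B, on the other strand of the same locus, stood at 0.78 to 2.64 FPKM; whether counting used the strand is not given in the sources used here.

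SESN1 (ENSG00000080546, chromosome 6, 108986437 to 109094819, minus strand), a sestrin that restrains mTORC1 signalling and oxidative stress, stayed between 1.78 and 2.69 FPKM. Its values at 16 h were 2.20 and 2.31 in solvent, 1.93 and 1.78 at 20 nM, then 2.02 and 1.91 at 100 nM. At 24 h they were 2.20 and 2.69 in solvent, 2.42 in both libraries at 20 nM and 2.23 and 2.16 at 100 nM. The drug libraries lay below solvent at 16 h and overlapped it at 24 h. SESN1 passed no test, with changes of -0.19, -0.13, -0.0069 and -0.11 and adjusted p-values of 0.203, 0.344, 0.967 and 0.424.

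FAS and ZMAT3, which act on cell death and on RNA, were both low. FAS (ENSG00000026103, chromosome 10, 88990582 to 89015785, plus strand), the death receptor for FAS ligand, was at 2.72 and 2.99 FPKM in solvent at 16 h, 2.45 and 2.95 at 20 nM, then 2.93 and 2.94 at 100 nM. At 24 h its level was 2.46 and 2.69 FPKM in solvent, 1.83 and 1.97 at 20 nM, then 2.84 and 1.75 at 100 nM. The 100 nM libraries at 24 h were the farthest apart of any FAS pair, 1 above and 1 below the solvent libraries. FAS passed no test, and its largest change, -0.30 at 20 nM after 24 h, had an adjusted p of 0.158 and an interval from -0.63 to 0.032. When every library was rescaled to the same FPKM sum, that change was -0.43 and passed (limma, adjusted p = 0.0475).

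ZMAT3 (ENSG00000172667, chromosome 3, 179017223 to 179072279, minus strand), a zinc finger protein that binds RNA and steers splicing and transcript stability, was at 2.61 and 2.82 FPKM in solvent at 16 h, 1.74 and 2.25 at 20 nM, then 1.17 and 1.44 at 100 nM. At 24 h its level was 3.02 and 2.48 FPKM in solvent, 3.41 and 2.88 at 20 nM, then 2.92 and 2.44 at 100 nM. All drug libraries lay below solvent at 16 h, and both dose groups overlapped the solvent group at 24 h. ZMAT3 fell by 0.69 at 100 nM after 16 h (standard error 0.131, adjusted p = 0.00591), to 0.481 of the solvent mean, the largest change of the 9 genes in any drug comparison. At 20 nM after 16 h the change was -0.32 (adjusted p = 0.134), and at 24 h the changes were 0.15 and -0.027 (adjusted p = 0.442 and 0.899). The difference between the 24 h and the 16 h effect of 100 nM was 0.66, with an adjusted p of 0.0548 that misses the threshold and values of 0.0451 and 0.0498 with pseudocounts of 0.1 and 0.5.

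**Figure D2:**
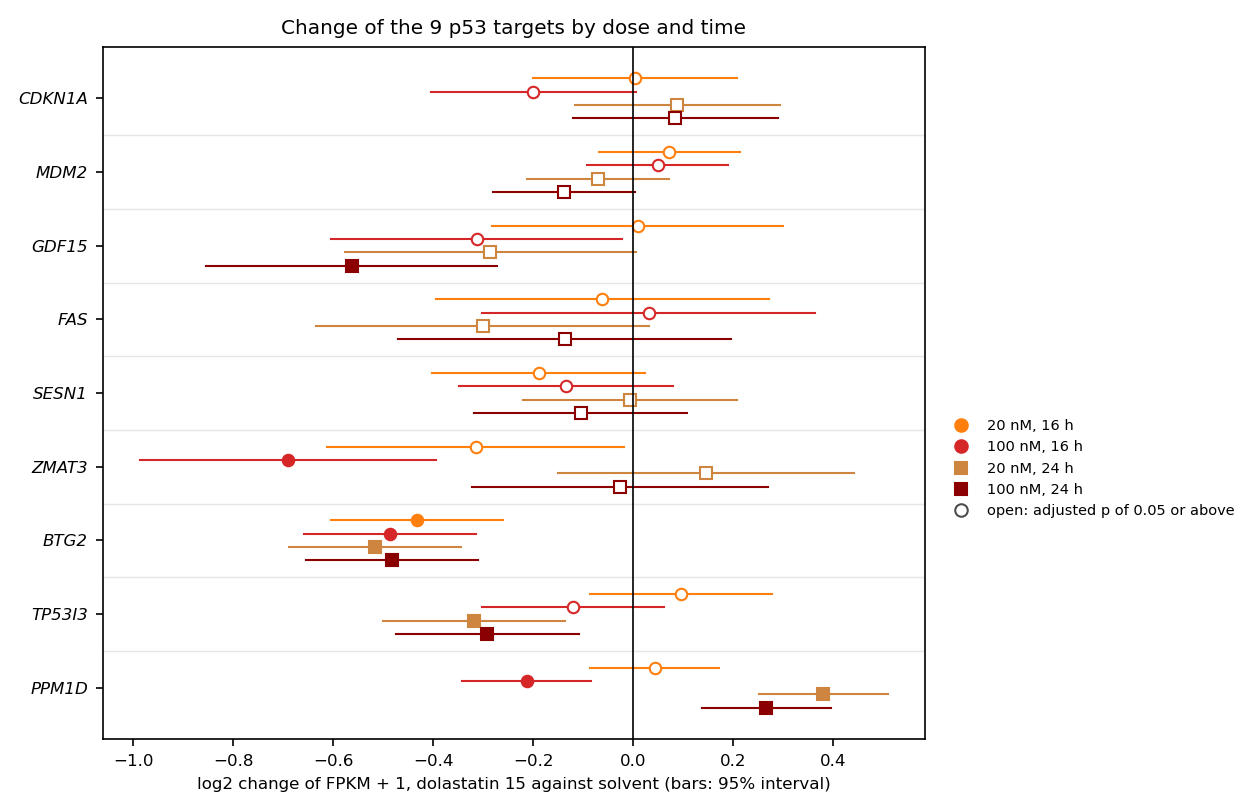
Change of each target against the solvent libraries of the same time (x axis: log2 change of FPKM + 1; rows: genes) at 20 nM and 100 nM, 16 h (circles) and 24 h (squares), with 95% intervals; filled symbols have an adjusted p under 0.05. BTG2 is the 1 gene filled on the left in all 4 comparisons, PPM1D has filled symbols on both sides of 0, and every CDKN1A, MDM2, FAS and SESN1 symbol is open.

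Counted together, 11 of the 36 pairs of gene and drug comparison passed, 9 lower and 2 higher, and both higher ones were PPM1D. At 20 nM and 16 h 1 of the 9 genes changed, downwards, where 17.7% of all tested genes changed (6.78% upwards and 11% downwards). At 100 nM and 16 h 3 changed, all downwards, where 23.8% of all genes did (9.16% upwards and 14.7% downwards). At 20 nM and 24 h 1 rose and 2 fell, where 28.8% of all genes changed (14.7% upwards and 14.1% downwards). At 100 nM and 24 h 1 rose and 3 fell, where 33.8% of all genes changed (15.4% upwards and 18.4% downwards). With 9 genes, counts of 1 to 4 are near these shares and are not a result about the set. The median log2 change of the 9 was 0.0030, -0.20, -0.071 and -0.14 in the same order, where that of all tested genes was -0.024, -0.028, 0.0018 and -0.024. At 100 nM and 16 h 6 of the 9 genes had both drug libraries below both solvent libraries, as did 36% of all genes. CDKN1A, MDM2, FAS and SESN1 passed in none of the 4 comparisons, as did 48.6% of all tested genes.

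The 2 doses were not told apart at either time by limma for any of the 9 genes, where 0.32% of all tested genes differed at 16 h and 4.88% at 24 h. The largest differences of 100 nM from 20 nM at 16 h were those of ZMAT3 (-0.38), GDF15 (-0.32), PPM1D (-0.26) and TP53I3 (-0.22). Their adjusted p-values by limma lay between 0.115 and 0.360. FAS (0.092) and SESN1 (0.055) went the other way. Over time in solvent 1 of the 9, GDF15, was higher at 24 h, where 5.62% of all tested genes differed; BTG2 was 0.29 higher with an adjusted p of 0.0566. The drug effect differed between the times for 2 of the 9 genes at 20 nM (PPM1D and TP53I3), where 11.5% of all genes did, and for PPM1D at 100 nM, where 10.2% did. With 1 library left out in turn, the shares of all genes ranged from 7.7% to 20.6% and 13.2% to 26.9% in the drug comparisons at 16 h, lowest without a library of the groups compared, and from 16% to 28% and 20.5% to 37.2% at 24 h, lowest without a solvent library at 20 nM and without the library with FAS at 2.84 FPKM at 100 nM. The 16 h dose share ranged from 0.111% to 0.483%. That at 24 h ranged from 0.312%, without the 100 nM library with FAS at 2.84 FPKM, to 11.2%, without the 20 nM library with FAS at 1.83 FPKM. The solvent share ranged from 0.171%, without the 16 h library with FAS at 2.72 FPKM, to 10.7%, without either 20 nM library of 24 h, and the shares for the change of effect from 5.24% to 13% and from 4.7% to 13.3%.

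The 9 genes did not follow a common course over the 12 libraries. As a description over libraries that share groups and scaling, Pearson's r of log2(FPKM + 1) was highest between CDKN1A and PPM1D (0.85), CDKN1A and ZMAT3 (0.78) and ZMAT3 and PPM1D (0.76), and lowest between FAS and PPM1D (-0.73). MDM2 had an r between -0.023 and 0.32 with each of the other genes. Among 9462 genes with a mean of at least 5 FPKM, the course closest to that of BTG2 was CRIP2 (r = 0.99 over 12 libraries), then MICB and DBN1 (both 0.98). For PPM1D it was ELF1 (0.98), then NBR1 and SP3 (both 0.97), for GDF15 VIM (0.96), for ZMAT3 KLF13 (0.96), for CDKN1A ING4 (0.95), for SESN1 SLC39A4 (0.94), for TP53I3 GPR161 (0.91) and for FAS GORASP1 (0.89). Of the 9 genes, GDF15, FAS, BTG2, ZMAT3 and SESN1 lie under that mean and could not be found as a match.

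Other p53 targets moved in both directions as well. Of 40 further target genes, 37 were tested, and TP53INP1, SPATA18 and TRIM22 stayed under 1 FPKM. At 20 nM and 16 h 8 rose and 4 fell, where 6.78% of all tested genes rose and 11% fell. At 100 nM and 16 h 8 rose and 7 fell, where 9.16% of all genes rose and 14.7% fell. At 20 nM and 24 h 7 rose and 5 fell, where 14.7% of all genes rose and 14.1% fell. At 100 nM and 24 h 11 rose and 5 fell, where 15.4% of all genes rose and 18.4% fell. The median log2 changes of the 37 were -0.0091, 0.020, 0.0062 and 0.057 in the same order. PTP4A1, a phosphatase, rose most at 24 h (0.74 at 20 nM and 0.72 at 100 nM, from 69.05 and 67.67 FPKM in solvent), and AEN, a nuclease of cell death, most at 16 h (0.55 and 0.66). TRIAP1, an inhibitor of apoptosis (0.58 and 0.64 at 24 h), PMAIP1, the BH3-only protein NOXA (0.69 at 100 nM and 24 h), FBXW7, a subunit of the ligase that degrades cyclin E (0.42 and 0.40 at 16 h), and BTG1, the relative of BTG2 (0.51 and 0.69 at 24 h), rose too. Of the 37, 5 rose in all 4 comparisons, namely AEN, FBXW7, PMAIP1, PTP4A1 and TRIAP1. The share of all tested genes that did so is not given here. Cyclin G1 (CCNG1) was the 1 that fell in all 4, by 0.47 at 100 nM and 24 h, as did 3.67% of all tested genes. PIDD1, the scaffold that activates caspase-2, fell at 16 h (-0.49 and -0.76). ABHD4 (-0.49 and -0.55 at 16 h), DDB2 (-0.26 at 100 nM and 16 h), TNFRSF10A (-0.28 at 20 nM and 16 h), FDXR (-0.33 at 20 nM and 24 h), CYFIP2 (-0.50 at 100 nM and 24 h) and NINJ1 (-0.32 and -0.42 at 24 h) were the other leading decreases. Rescaling to a common sum turned the 24 h counts to 4 higher and 16 lower at 20 nM and to 9 higher and 11 lower at 100 nM.

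**Figure D3:**
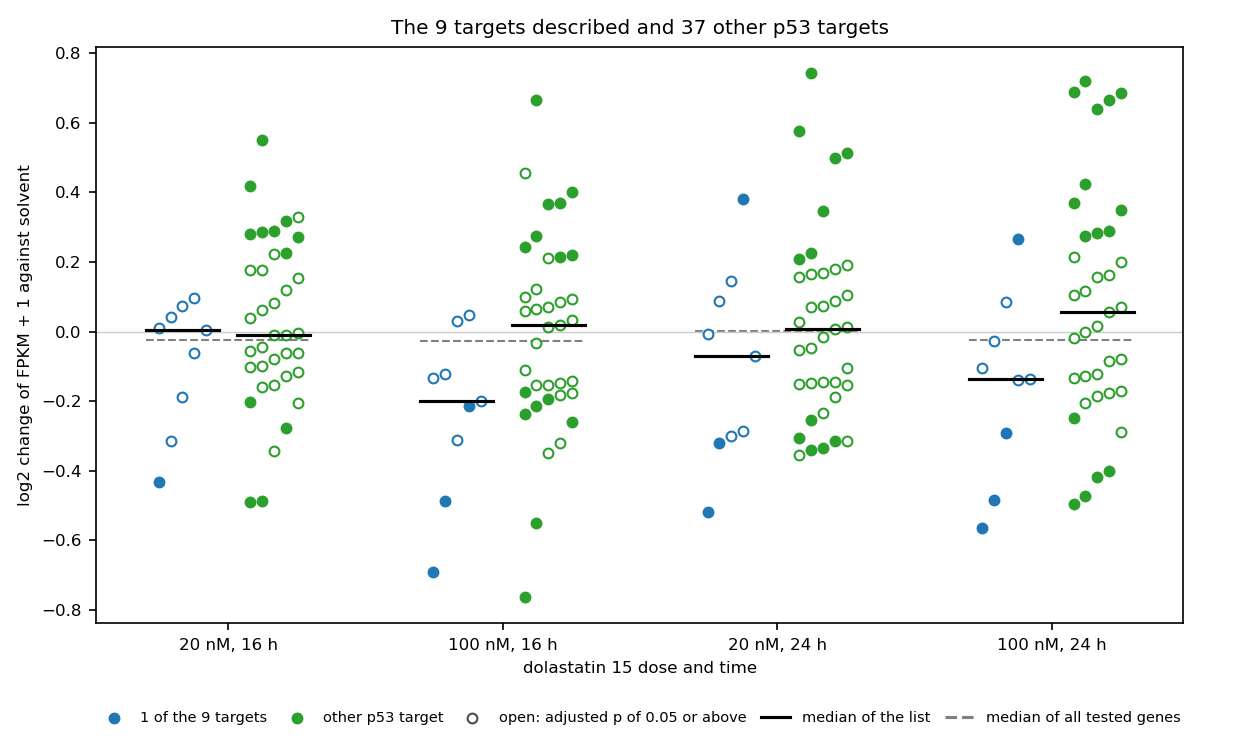
Log2 change of FPKM + 1 against solvent (y axis) in the 4 drug comparisons (x axis) for the 9 targets described (blue) and 37 other p53 targets (green); each point is a gene, filled where the adjusted p is under 0.05, black lines are list medians and dashed grey lines the median of all tested genes. Both sets spread to both sides of 0, from -0.76 (PIDD1) to 0.74 (PTP4A1), and the list medians stay between -0.20 and 0.057.

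Calls among regulators of the pathway went in both directions, and 7 of 20 were called in none of the 4 comparisons, as were 48.6% of all tested genes. MDM4, the MDM2 relative that blocks p53's activation domain, rose at 20 nM after 24 h (0.33, adjusted p = 0.0168) and was at 0.037 at 100 nM. Of the checkpoint kinases, CHEK2 fell in all 4 comparisons (-0.29, -0.42, -0.41 and -0.74), CHEK1 rose at 24 h (0.33 and 0.22), and ATM passed in none. TP73, the p53 family member that binds the same sites, fell from 7.82 and 8.19 FPKM to between 3.17 and 4.05 at 16 h (-0.89 and -1.04) and at 24 h by 0.61 and 1.11. RCHY1, another ligase for p53, rose in all 4 (0.30 to 0.48). Of these regulators, 4, 4, 5 and 4 rose and 4, 4, 5 and 5 fell in the 4 comparisons, where 17.7%, 23.8%, 28.8% and 33.8% of all tested genes changed; these shares also stand beside the counts of the lists that follow. Rescaled to a common sum, 3, 1, 1 and 2 rose and 4, 5, 6 and 6 fell, and the rises of MDM4 (0.16, adjusted p = 0.124) and CHEK1 (0.14 and 0.12, adjusted p = 0.152 and 0.221) at 24 h did not pass.

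**Figure D4:**
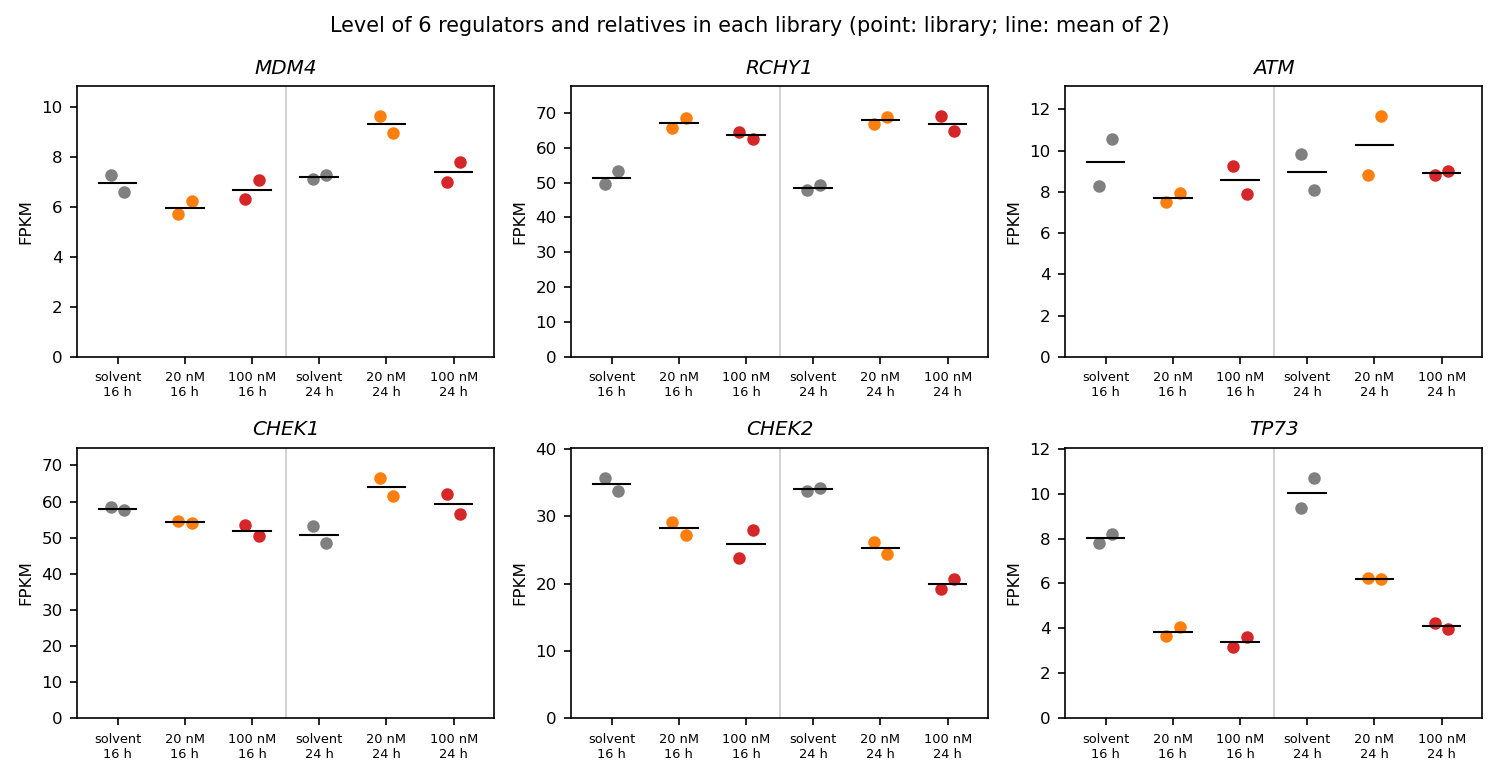
Level in FPKM (y axes, from 0) of MDM4, the ligase RCHY1, the kinases ATM, CHEK1 and CHEK2 and the family member TP73 in the 6 groups (x axes, colours as for the 9 targets); points are libraries and lines the mean of 2. RCHY1 lies above its solvent libraries in every drug group, and CHEK2 and TP73 lie below their solvent libraries in every drug group.

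The 11 tested partners of p21 were cyclins, their kinases and PCNA, the clamp of DNA replication. Of the 11, 9 passed in at least 1 comparison, while CCND1 and CDK4 passed in none, as did 48.6% of all tested genes. Of the 11 partners 2 rose and 5 fell at 20 nM and 2 rose and 7 fell at 100 nM after 16 h, and 1 and 3 rose and 4 and 4 fell after 24 h (0 and 1 higher and 6 and 4 lower when rescaled). CDK1, the mitotic kinase, fell in all 4 comparisons, at 16 h (73.18 and 70.18 FPKM in solvent, 31.62 and 32.8 at 20 nM, then 29.93 and 26.67 at 100 nM), by 1.13 and 1.31 and at 24 h by 0.32 and 0.86. Cyclin B1 (CCNB1) rose at 16 h (0.60 and 0.78) and at 100 nM after 24 h (0.16). At 20 nM after 24 h CCNB1 was lower, at 258.61 and 253.96 FPKM against 289.92 and 292.41 in solvent. Cyclin E2 (CCNE2) fell by 1.32 at 100 nM after 16 h and rose by 0.63 at 100 nM after 24 h. Among the 7 other inhibitors of cyclin-dependent kinases, CDKN1C (p57), the p21 relative, fell in all 4 comparisons (-0.52, -0.38, -0.68 and -0.85), CDKN2D (p19) rose at 24 h (0.69 and 0.97) and CDKN3 rose at 16 h (0.35 and 0.46).

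Relatives of the 9 genes, and factors known to act on them without p53, were called in part: 3 of 14 relatives and 5 of 14 factors passed in no comparison. Of all tested genes, 48.6% passed in none of the 4 drug comparisons. BTG3 rose at 24 h (0.41 and 0.38) and TOB1 at 16 h (0.42 and 0.27), both of the BTG2 family, and TNFRSF1A, a receptor related to FAS, fell in all 4 comparisons (-0.47 to -0.66). Of the relatives 3, 3, 4 and 4 rose and 2, 2, 3 and 2 fell, and rescaled to a common sum 3, 1, 2 and 2 rose and 1, 3, 5 and 3 fell. Of the factors 4, 3, 5 and 6 rose and 3, 4, 0 and 0 fell, and rescaled 3, 2, 2 and 5 rose and 3, 5, 2 and 2 fell, so that the 24 h counts in 1 direction rest on the scaling. EGR1, an immediate early factor, rose in all 4 (0.83, 0.70, 1.12 and 1.2), as did DDIT3, a factor of the integrated stress response (0.40 to 0.64; not past the threshold when rescaled at 20 nM and 24 h, adjusted p = 0.0609), and ATF3 rose in 3 (0.46 at 20 nM and 16 h, 0.85 and 0.77 at 24 h). SP1, which binds GC boxes such as those shown for BTG2 and PPM1D, fell at 16 h from 24.06 and 24.31 FPKM to 13.7 and 13.17 at 20 nM, then 8.21 and 9.31 at 100 nM (-0.80 and -1.37), with 24 h changes of 0.17 and -0.11 that did not pass. Whether any of these factors bears on the 9 genes was not tested.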

How the data were processed

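Gene levels are FPKM values that the authors computed from paired poly(A) RNA-seq libraries and deposited as 1 table; per the submitters' processing notes they used RSEM 1.2.28 and GRCh38, and for the aligner, annotation release and strand setting the entry is: not given in the sources used here. Symbols were matched by gene identifier to GENCODE 29 (57836 of 58174). The 9 genes and the gene lists were chosen with earlier results of these data known. Columns give a group and a library number, so each library was used under its group and none were paired. Genes with at least 1 FPKM in 2 libraries (13458) were fitted as log2(FPKM + 1) with limma 3.58.1 (R 4.3.3), using 6 group means over all 12 libraries, a mean-dependent prior, 9 two-sided contrasts and Benjamini-Hochberg adjustment over all tested genes; the threshold was 0.05. A fold on this scale understates changes of low genes. The fit was tested on simulated data for 100 nM against solvent at 24 h. It called 63% of log2 changes of 0.5 and 85% of log2 changes of 1, and 3.90% of its calls were false. The simulated noise was independent between genes and libraries, and few genes were changed. In the data 33.8% of tested genes were called in that comparison, so these rates need not hold there. Fragment depth was estimated from whole-fragment steps of single-transcript genes; intervals cover the spread between libraries. Named genes are the 9, MDM4, CHEK1, CHEK2 and ATM, up to 3 called genes with the largest increase and 3 with the largest decrease per list and drug comparison, and the genes closest to each of the 9 by Pearson's r; some genes the rule covers are not reported here. Alternatives covered pseudocounts of 0.1 and 0.5, filters, scaling, the prior, time points fitted alone and each library left out.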

Additional observations from a re-analysis of the deposited data

Results flagged for a closer look

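For 2 of the 9 genes the drug effect at 24 h differed from that at 16 h by the test of the difference itself. For PPM1D the difference was 0.34 on the log2 scale at 20 nM (adjusted p = 0.0296, limma) and 0.48 at 100 nM (adjusted p = 0.00863), with every 24 h drug library above its solvent libraries. The PPM1D difference at 100 nM passed with each library left out in turn. That at 20 nM did not pass when any 1 of 6 libraries was left out (differences from 0.27 to 0.37). It also missed the threshold under rescaling to a common sum (0.16, adjusted p = 0.268), with no filter on low values (adjusted p = 0.0517) and with median-of-ratios scaling (0.31, adjusted p = 0.0509). For TP53I3 the difference at 20 nM was -0.42 (adjusted p = 0.0482), and with each library left out it passed only without the solvent library at 9.21 FPKM of 16 h. The TP53I3 difference also missed the threshold with no filter on low values (adjusted p = 0.102) and with a constant prior (adjusted p = 0.0521).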

How the results depend on the processing

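Of 1557 single values recomputed for the 9 genes, 1449 kept their direction and side of the threshold, 45 changed sign and were called under neither setting, 49 lost the call, 14 gained one and 0 changed sign where called. The 4 falls of BTG2 passed in every setting in which it was tested. A minimum of 5 FPKM, which removes the lowest of the 9 genes from the test, left 0 called at 20 nM and 1 at 100 nM after 16 h. Rescaling to a common sum called 6 at 20 nM and 24 h (1 higher, 5 lower) and 2 between the solvent times. With no filter on low values the solvent times and the change of the 20 nM effect each gave 0. The change of the 20 nM effect gave 1 with median-of-ratios scaling and 1 with a constant prior, and that of the 100 nM effect gave 2 with a pseudocount of 0.1, 2 with 0.5 and 2 with a constant prior. With each library left out in turn, a lone library being assumed to vary like the other groups, the counts ranged from 1 to 1, 2 to 3, 2 to 3 and 1 to 5 in the drug comparisons, stayed 0 to 0 between doses, and ranged from 0 to 2 between solvent times, 0 to 2 for the change of the 20 nM effect and 1 to 1 for that of the 100 nM effect. Rescaling moved the median of all tested genes by -0.16 at 20 nM and 24 h, and the share of higher calls there from 51.1% to 10.9%, at 100 nM and 24 h from 45.6% to 23.5% and at 100 nM and 16 h from 38.5% to 27.8%; median-of-ratios scaling moved it at 16 h from 38.2% to 50.5% and from 38.5% to 49.8%. Over all genes, the dose comparison at 24 h gave 657 calls, 334 with no filter, 411 with a constant prior and 9 with the time point alone; that at 16 h gave 43, 28 with a constant prior and 10 with the time point alone. The solvent times gave 756, 326 with no filter and 1188 rescaled, and the change of the 20 nM effect 1550, 1008 with no filter and 2464 rescaled. The causes were not tested. No paired analysis was possible because the columns carry a group and a library number, not the sample numbers of the labels. BTG2, SESN1, FAS and ZMAT3 lay between 1 and 4 FPKM, and a change that was not called is bounded only by its interval.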
